A study of Homo sapiens with 9 samples.

Results

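The genes described here are the transcription factors that drive the cell cycle through its RB and E2F switch, with their pocket protein inhibitors: E2F1, E2F2, E2F3, E2F7, E2F8, RB1, RBL1, MYBL2 and FOXM1. They were chosen by symbol, and 8 of the 9 were found among the 13410 genes of the authors' deposited table; E2F8 is not analysed here. Expression had been measured in MV4-11 cells, a human leukaemia cell line of monocytic character that carries an MLL fusion and an internal duplication in FLT3. Cells were kept for 18 h with JB170 at 100 nM, with alisertib at 1000 nM or with the vehicle DMSO, with 3 poly(A)-selected libraries a group and 9 in all. Alisertib inhibits the kinase activity of Aurora A. JB170 joins alisertib to a ligand of the ubiquitin ligase receptor cereblon, so that Aurora A is degraded.

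The authors' deposited table sets each treatment against DMSO and lists the log2 fold change with its raw and adjusted p-values. Its column A1000 was read as alisertib by its dose. It holds further columns, A100 and MK, for which the labels give no group, so those are described by their column names only. Each change below is written as treated minus DMSO on the log2 scale, so that a value above 0 means a higher transcript level with the treatment. That direction was inferred and no header states it: the JB170 column runs opposite to the other columns as deposited and was left as it is, while the other columns were multiplied by -1. Were a column read the other way, the direction of every value in it would turn. No values of single libraries entered the work, which leaves depth unknown and gives no spread per group. Separate cultures are not stated in the labels, so the authors' p-values cover the variation among these libraries, which may be technical. All columns are comparisons with DMSO, so like values in several columns are not independent of each other.

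E2F1, E2F2 and E2F3 are activator members of the E2F family, which bind DNA together with a DP partner and switch on genes of the entry into S phase. The pocket proteins RB (RB1) and p107 (RBL1) bind E2F proteins and hold their targets silent until cyclin-dependent kinases phosphorylate them. E2F7 and E2F8 are atypical E2Fs, themselves E2F targets, which repress the same genes later in the cycle. B-MYB (MYBL2) joins the MuvB core complex, and FOXM1 then follows on it, to switch on the genes of G2 and mitosis.

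E2F1 is known to be controlled through E2F sites in its own promoter, so the promoters were searched for E2F words. Of the stretches searched, 3 are shown: those of E2F1 and RBL1, the genes with a pair of E2F words, and that of E2F7, one of the genes with none. The words searched were TTTCCCGC, TTTCGCGC, TTTGCCGC and TTTGGCGC, on both strands, in the 250 bases before each start in RefSeq's promoter table (GRCh38.p14). Of 6 genes with an entry near their annotated start, 4 held a word (E2F1, E2F2, E2F3 and RBL1), against 2.79% of all 35116 promoters of the table and 3.98% of the 13476 promoters of genes measured here. Those shares count promoters and not genes, and a further E2F3 entry, 1708 bases from its annotated start, held no word. E2F7 and MYBL2 held none of these exact words. Other forms of an E2F site were not searched, so this does not show that they lack one. Capitals mark the words, which do not overlap each other; the regions are chr20:33686386-33686635 (minus strand) for E2F1, chr20:37095998-37096247 (minus strand) for RBL1 and chr12:77065570-77065819 (minus strand) for E2F7.
E2F1: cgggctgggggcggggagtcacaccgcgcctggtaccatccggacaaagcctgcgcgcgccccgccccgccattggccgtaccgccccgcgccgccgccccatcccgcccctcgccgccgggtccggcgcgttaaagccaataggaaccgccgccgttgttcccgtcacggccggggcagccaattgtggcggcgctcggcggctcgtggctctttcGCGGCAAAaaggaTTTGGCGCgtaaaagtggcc
RBL1: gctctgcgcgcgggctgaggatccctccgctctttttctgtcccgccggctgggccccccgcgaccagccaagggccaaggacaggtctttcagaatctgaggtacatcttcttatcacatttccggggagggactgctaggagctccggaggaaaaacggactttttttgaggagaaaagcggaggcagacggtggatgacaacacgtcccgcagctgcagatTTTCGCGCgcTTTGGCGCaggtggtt
E2F7: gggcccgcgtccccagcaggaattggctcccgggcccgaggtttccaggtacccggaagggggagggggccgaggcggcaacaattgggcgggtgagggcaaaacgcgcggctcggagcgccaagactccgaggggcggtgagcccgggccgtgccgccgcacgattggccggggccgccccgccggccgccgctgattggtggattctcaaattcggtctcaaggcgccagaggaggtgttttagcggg
In E2F1 the words lie 33 to 26 and 20 to 13 bases before the start, and in RBL1 26 to 19 and 16 to 9 bases before it. The word CCAAT, on either strand, was found 4 times in the E2F7 stretch, 3 times in that of E2F1 and not in that of RBL1; 32.0% of all promoters of the table hold it. TTTGAA, the core of the cell cycle homology region through which MuvB binds, was in none of the 3 stretches and in 13.3% of all promoters. A match is a run of letters and was not tested as a binding site.

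By mean level, MYBL2 was the highest of the 8 genes and E2F7 the lowest. The authors' deposited table gives 1 mean log2 CPM per gene, whose libraries it does not name. Divided by the merged exon length of GENCODE 29, these levels were, as log2 CPM per kilobase, 7.17 for MYBL2, 5.36 for E2F1, 4.47 for RB1, 4.17 for RBL1, 3.96 for E2F3, 3.30 for FOXM1, 2.96 for E2F2 and 1.31 for E2F7. With no spread per library, it cannot be said which neighbours in that order differ. Without the division by length, MYBL2 at 8.65 log2 CPM lay above 97.4% of all genes and E2F7 at 3.96 log2 CPM above 39.1%. Markers of the cell line gave 1.41 to 9.88 mean log2 CPM over all 8 genes listed, with HOXA9 the lowest and FLT3 the highest. Of 10 markers of lymphoid, epithelial, erythroid, stromal and endothelial cells, 7 are not analysed here, and the other 3 stood at 0.28 to 2.80 mean log2 CPM. The ranges overlap: HOXA9 and ITGAM (1.95) of the cell line lay below the epithelial marker KRT18 (2.80).

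None of the 8 genes passed the authors' adjusted threshold of 0.05 in any of the 4 comparisons, so no change of a single regulator was called. In the authors' deposited table the count was 0 of 8 with JB170, where 0.0298% of all 13410 genes were called, and 0 of 8 with A1000, where 5.92% were. It was also 0 of 8 with A100 (1.3% of all genes called) and 0 of 8 with MK (0.47%). At an unadjusted p under 0.05 the table held 1 of 8 with JB170 (3.02% of all genes), 3 of 8 with A1000 (17.6%), 2 of 8 with A100 (11.6%) and 0 of 8 with MK (8.65%). By direction, the share of all genes called was 0.0224% higher and 0.00746% lower with JB170, 3.09% and 2.83% with A1000, 0.761% and 0.537% with A100, and 0.321% and 0.149% with MK, each time higher first. With 8 genes, none of these counts sets the regulators apart from the background.

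**Figure D1:**
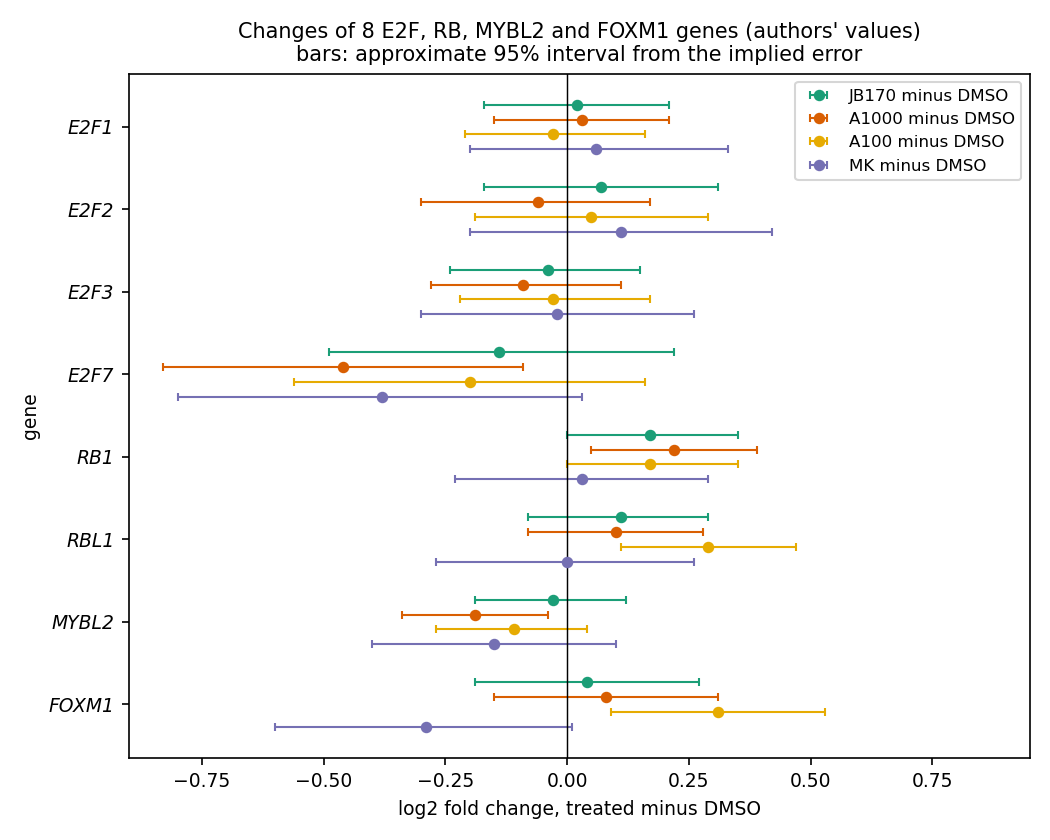
Log2 fold change of 8 cell cycle regulators, treated minus DMSO, with 1 point per comparison and bars for an approximate 95% interval made from the authors' fold change and p-value. Points for E2F1, E2F2 and E2F3 sit between -0.09 and 0.11, E2F7 reaches -0.46 with A1000, and FOXM1 lies at 0.31 with A100 and -0.29 with MK.

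The activator E2Fs lay close to 0, between -0.09 and 0.11 in all 4 columns. E2F1 (ENSG00000101412, chromosome 20, 33675683 to 33686404, minus strand, GRCh38 in GENCODE 29) stood at 0.02 with JB170, 0.03 with A1000, -0.03 with A100 and 0.06 with MK in the authors' deposited table. An approximate 95% interval, made from an error implied by the authors' fold changes and p-values, ran from -0.15 to 0.21 with A1000, which is a 0.90- to 1.16-fold level. For E2F2 (ENSG00000007968, chromosome 1, 23506430 to 23531220, minus strand) the authors' deposited table gave 0.07 with JB170, -0.06 with A1000, 0.05 with A100 and 0.11 with MK. E2F3 (ENSG00000112242, chromosome 6, 20401906 to 20493715, plus strand) stood at -0.04, -0.09, -0.03 and -0.02 in the same order of columns in the authors' deposited table. GENCODE names 2 pseudogenes after E2F3, so reads may have been split between copies. The smallest unadjusted p of the 3 genes was 0.378, for E2F3 with A1000 in the authors' deposited table. Intervals with A1000 and JB170 held no change beyond 0.31 in either direction for any of the 3.

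E2F7, the atypical repressor, had the lowest value of the 8 genes in A1000, A100 and MK. It was also the lowest with JB170 in the direction used here, and would be the highest there with the sign of that column turned round. In the authors' deposited table E2F7 (ENSG00000165891, chromosome 12, 77021247 to 77065580, minus strand) stood at -0.14 with JB170 (p = 0.445), -0.46 with A1000 (p = 0.0162, adjusted p = 0.165), -0.20 with A100 (p = 0.274) and -0.38 with MK (p = 0.0704). The A1000 value is a 0.727-fold level with an interval from 0.56 to 0.94. It was the least abundant and the least precise of the 8 genes, with an implied error of 0.191 on the log2 scale with A1000 against 0.076 for MYBL2.

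RB1, the retinoblastoma protein itself, lay above 0 in each column in the directions used here. The authors' deposited table gave RB1 (ENSG00000139687, chromosome 13, 48303726 to 48599436, plus strand) 0.17 with JB170 (p = 0.0493, adjusted p = 1), 0.22 with A1000 (p = 0.0121, adjusted p = 0.141), 0.17 with A100 (p = 0.0518) and 0.03 with MK (p = 0.809). RB1 was the only one of the 8 genes with an unadjusted p under 0.05 with JB170. The fold with A1000 was 1.16 with an interval from 1.03 to 1.31, and that with JB170 was 1.13 with an interval from 1.00 to 1.27. RBL1, which encodes p107 (ENSG00000080839, chromosome 20, 36996349 to 37095995, minus strand), stood at 0.11 with JB170, 0.10 with A1000, 0.29 with A100 and 0.00 with MK in the authors' deposited table. Its A100 value had the smallest adjusted p of all 32 values that the authors' deposited table holds for these genes (p = 0.0019, adjusted p = 0.0996), a 1.22-fold level with an interval from 1.08 to 1.39. An antisense gene shares 211 exon bases with RBL1 in GENCODE, and the sources used here do not say whether reads were counted by strand.

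MYBL2, which encodes B-MYB, had small values below 0 in each column in those directions. In the authors' deposited table MYBL2 (ENSG00000101057, chromosome 20, 43667019 to 43716496, plus strand) stood at -0.03 with JB170 (p = 0.658), -0.19 with A1000 (p = 0.0114, adjusted p = 0.135), -0.11 with A100 (p = 0.147) and -0.15 with MK (p = 0.237). The A1000 value is a 0.876-fold level with an interval from 0.79 to 0.97. FOXM1, the forkhead factor of mitotic genes, lay on both sides of 0. FOXM1 (ENSG00000111206, chromosome 12, 2857681 to 2877155, minus strand) stood at 0.04 with JB170, 0.08 with A1000, 0.31 with A100 (p = 0.00613, adjusted p = 0.190) and -0.29 with MK (p = 0.0623, adjusted p = 0.624) in the authors' deposited table. ITFG2, a gene on the opposite strand that shares 781 exon bases with FOXM1, had 0.01 with A100 and 0.08 with MK per the authors' deposited table (adjusted p of 1 for both).

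The size of change that would have been enough for a call differed by column. The largest p of a called gene was 1.73e-06 with JB170, 0.00251 with A1000, 0.000567 with A100 and 0.000218 with MK in the authors' deposited table. At the implied errors, reaching that p took a log2 change of 0.37 for MYBL2 to 0.87 for E2F7 with JB170. With A1000 it took 0.23 for MYBL2 to 0.58 for E2F7. A somewhat larger p might also have passed the adjusted threshold, so these sizes were enough for a call but may exceed the smallest one. With A1000 the observed sizes of MYBL2 (0.19 against 0.23), RB1 (0.22 against 0.26) and E2F7 (0.46 against 0.58) lay just under them.

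**Figure D2:**
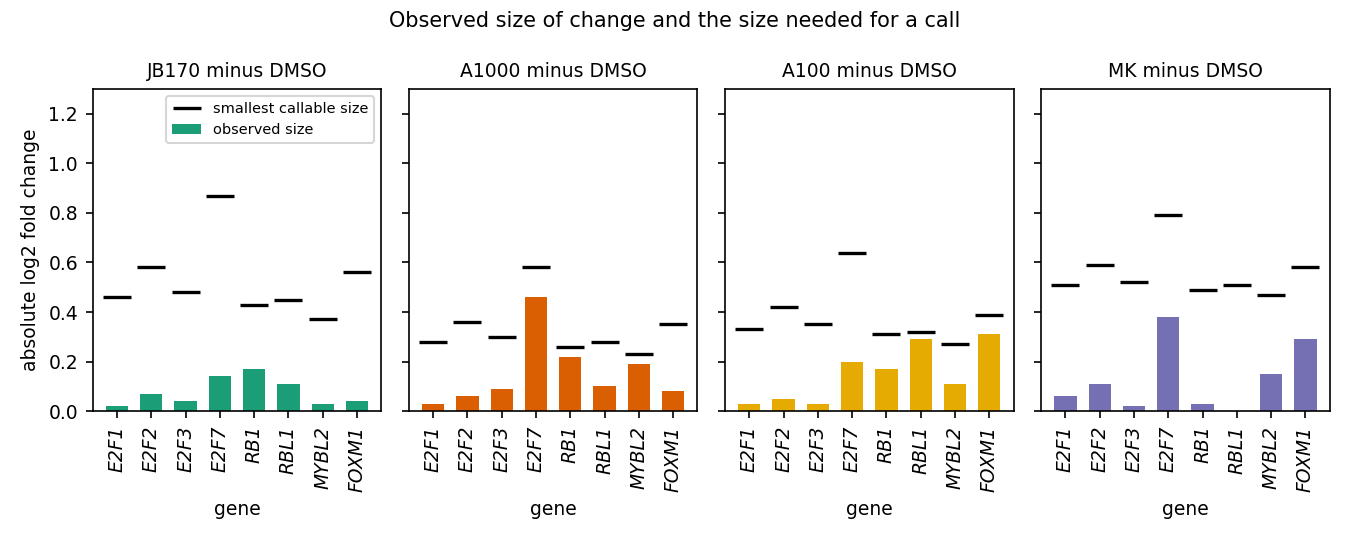
Absolute log2 fold change of the 8 genes (bars) in each comparison with DMSO. A black mark (smallest callable size) shows the size that reaches the largest p of a called gene at the gene's implied error. A somewhat smaller change might also have been called. Every bar ends below its mark, and RBL1 with A100 is the closest, at 0.29 against 0.32.

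Whether the comparisons differed from each other was asked with an approximate test of the difference between columns, adjusted over all 13410 genes. The adjusted p-values of this test rest on errors implied by the authors' p-values, not on values of single libraries. Over all 6 pairs of columns the test called 0 of 8 genes in each. Of all genes it called 0.283% for A1000 minus JB170, 0.0895% for A1000 minus A100, 0.082% for A1000 minus MK, 0.0597% for A100 minus MK, 0.0522% for A100 minus JB170 and 0.0149% for MK minus JB170. The last 3 pairs were added after the values were seen. The test keeps the noise of the shared DMSO libraries in its error, which makes that error too large. With it taken off, the shares were 2.8%, 0.753%, 1.34%, 1.69%, 0.134% and 0.44%, and 1 gene was called, FOXM1 for A100 minus MK. Taking it off assumes equal errors in both columns. Those of MK were larger, so the error of its pairs may then be too small.

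For alisertib against JB170, whose doses differ, no regulator passed the test in the direction used here. With the sign of JB170 turned round, 1 regulator passed it, RB1 at 0.39 (adjusted p = 0.0389, approximate test from the authors' values), while E2F2 stood at 0.01 in place of -0.13 and RBL1 at 0.21 in place of 0.00. In the direction used here, E2F7 had the widest gap of the 8, at -0.32 for A1000 minus JB170 with an interval from -0.84 to 0.20 (adjusted p = 0.999, approximate test from the authors' values). MYBL2 differed by -0.16 with an interval from -0.37 to 0.06 (approximate test from the authors' values, adjusted p = 0.999, and 0.340 with the shared libraries taken off). RB1 differed by 0.04, with an interval from -0.20 to 0.28, and E2F1 by 0.01, with an interval from -0.25 to 0.27. Those intervals bound the difference and do not show that the compounds act alike.

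Of the 8 genes, FOXM1 was the one on which the unlabelled columns lay furthest apart. Its difference was 0.60 for A100 minus MK, with an interval from 0.22 to 0.98, and it missed the threshold (p = 0.00181, adjusted p = 0.458, approximate test from the authors' values). With the shared DMSO libraries taken off the error the interval was 0.33 to 0.88 and the adjusted p 0.0043. That step assumes equal errors, and those of FOXM1 were 0.113 with A100 and 0.156 with MK, so the interval may be too narrow. RBL1 had the next largest difference in that pair, at 0.29 (approximate test from the authors' values, adjusted p = 0.999, and 0.220 with the shared libraries taken off). Transcript length moved with both columns in opposite directions. Over 5 equal bins of merged exon length, the median change of genes with a mean log2 CPM of at least 3 went up with length in column A100, where it was -0.049 in the shortest bin and 0.061 in the longest, and down in column MK, at 0.076 and -0.054. The labelled columns also went up with length in the directions used here, from -0.021 to 0.021 with JB170 and from -0.034 to 0.032 with A1000. In the middle bin, which holds FOXM1 and RBL1, the medians were 0.008 with A100 and -0.001 with MK. FOXM1's values less those medians were 0.30 and -0.29. Whether transcript length bears on FOXM1's difference was not tested.

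Among the partners of these regulators, the listed DP subunits (TFDP1 and TFDP2) and c-MYB were called with A1000. Those DP subunits went in opposite directions. Of 12 partners measured, 1 rose and 2 fell with A1000, against 5.92% of all genes called, and the median was 0.03 beside 0.006 over all genes. TFDP2, a DNA-binding partner of E2F proteins, rose by 0.81 with A1000 in the authors' deposited table (adjusted p = 0.000132) and stood at 0.32 with JB170, 0.52 with A100 and 0.24 with MK. TFDP1, the other listed DP subunit, fell by 0.28 on the log2 scale with A1000 in the authors' deposited table (adjusted p = 0.00906). It stood at 0.03 with JB170, -0.12 with A100 and -0.14 with MK. Per the authors' deposited table MYB, the haematopoietic relative of B-MYB, fell by 0.28 on the log2 scale with A1000 (adjusted p = 0.00641) and stood at -0.05 with JB170, -0.26 with A100 (adjusted p = 0.0553) and -0.19 with MK. For A1000 minus JB170, TFDP1 differed by -0.31 with an interval from -0.52 to -0.10 (approximate test from the authors' values, adjusted p = 0.376, and 0.00481 with the shared libraries taken off), and TFDP2 by 0.48 with an interval from 0.00 to 0.97 (adjusted p = 0.999 and 0.124). LIN54, the DNA-binding subunit of MuvB, stood at 0.19 with A1000, and LIN37 of the same complex at -0.39 with JB170, with adjusted p-values of 0.470 and 1 from the authors' deposited table. No partner was called with JB170, A100 or MK.

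The regulators that act on RB gave a mixed picture. Of 14 cyclins, kinases and inhibitors measured, 1 rose and 2 fell with A1000 in the authors' deposited table, where 3.09% of all genes were called higher and 2.83% lower. With A1000, 4 of the 14 lay above 0, against 51.2% of all genes, and the median was -0.19 beside 0.006 over all genes. With MK, 14 of 14 lay below 0, none of them called, at a median of -0.16, while 49.9% of all genes lay above 0. CDKN2D, the p19 inhibitor of CDK4 and CDK6, fell by 0.68 on the log2 scale with A1000 in the authors' deposited table (adjusted p = 0.00176). CCND3, which encodes cyclin D3, fell by 0.23 on the log2 scale (adjusted p = 0.0422) and CDKN1C, which encodes the inhibitor p57, rose by 1.55 (adjusted p = 0.0209) at a low mean of 0.97 log2 CPM in the authors' deposited table. CCND1, the cyclin D1 gene, stood at -2.89 with A1000 in the authors' deposited table without a call (adjusted p = 0.139), at a low mean of 0.58 log2 CPM. With JB170 none of the 14 was called, and the authors' deposited table lists CDKN2D at -0.21 and CCNA2, the gene of cyclin A, at 0.10.

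Both lists of downstream targets held called genes with A1000. With JB170 none of their genes was called, in a column where 4 of 13410 genes were called in all. The lists were not tested for a difference between A1000 and JB170, nor against the regulators. In bulk RNA, a change in the share of cells in a cycle phase and a change in RNA per cell cannot be told apart. Of 35 G1/S targets of E2F, 2 rose and 7 fell with A1000 in the authors' deposited table, against 3.09% of all genes called higher and 2.83% lower. Their median was -0.09 with A1000, beside 0.006 over all genes, and -0.01 with JB170, beside 0.004. CLSPN, the checkpoint mediator claspin, fell by 0.38 on the log2 scale with A1000 in the authors' deposited table (adjusted p = 0.00174). RRM2, the small subunit of ribonucleotide reductase, fell by 0.48, TYMS, thymidylate synthase, by 0.49 and PCNA, the sliding clamp of DNA replication, by 0.32 with A1000, and the authors' deposited table puts them at -0.01, -0.06 and -0.02 with JB170. GMNN, which encodes the licensing inhibitor geminin, fell by 0.38 with A1000 (adjusted p = 0.00307) and fell by 0.44 with A100 (adjusted p = 0.00267) in the authors' deposited table. CDCA7, a MYC- and E2F-responsive gene, rose by 0.31 with A1000 in the authors' deposited table (adjusted p = 0.0208), against 0.13 with JB170 without a call. Of 44 targets of FOXM1 and the MuvB complex in G2 and mitosis, 19 rose and none fell with A1000 in the authors' deposited table, against 3.09% of all genes called higher and 2.83% lower. With A100, 2 of the 44 rose, against 0.761% of all genes called higher and 0.537% lower, and with MK 2 rose and 1 fell, against 0.321% and 0.149%. The medians were 0.04 with JB170, 0.21 with A1000, 0.13 with A100 and 0.13 with MK, beside 0.004, 0.006, 0.004 and -0.001 over all genes. HMMR, a spindle assembly factor, had 0.14 with JB170, 0.66 with A1000, 0.51 with A100 and 0.53 with MK in the authors' deposited table, called in each but JB170. BORA, a cofactor of Aurora A in the activation of PLK1, rose by 0.34 with A1000 (adjusted p = 0.0369) per the authors' deposited table, which has 0.18 for it with JB170. PLK1, the polo-like kinase of mitotic entry, rose by 0.51 with A1000, CDC20, an activator of the anaphase-promoting complex, by 0.51 and AURKA, the gene of Aurora A itself, by 0.49, beside 0.20, 0.12 and 0.04 with JB170 per the authors' deposited table. In the directions used here, 33 of the 44 lay above 0 with JB170, 38 with A1000, 37 with A100 and 32 with MK. Of all genes, 51.0%, 51.2%, 50.7% and 49.9% lay above 0, in the same order of columns. With MK, HMMR and CDC20 (0.48) were the genes that rose. The 1 that fell was MKI67, the Ki-67 proliferation marker, by 0.50 on the log2 scale per the authors' deposited table (adjusted p = 0.0245), a gene named after its value was seen.

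**Figure D3:**
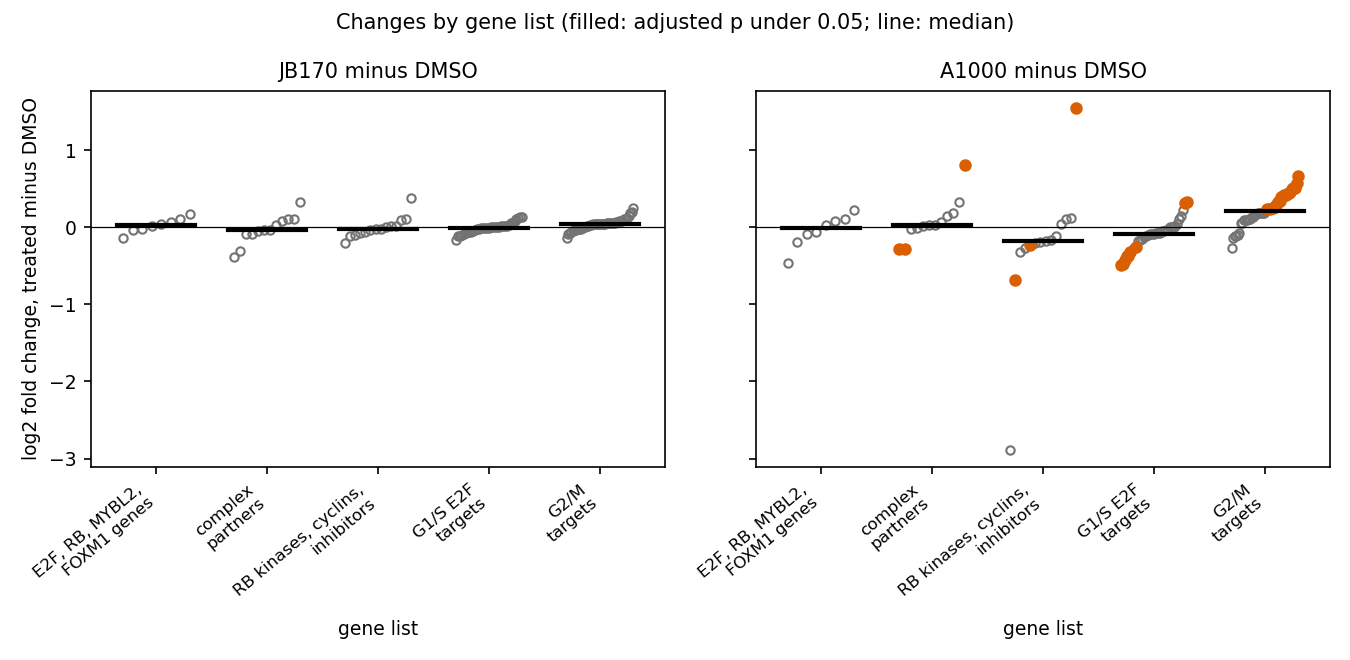
Log2 fold change against DMSO of each gene of 5 lists with JB170 and with A1000, with filled points for an adjusted p under 0.05 and a line at the median. No point is filled with JB170, where 0.0298% of all genes were called; with A1000, where 5.92% were, 19 of 44 G2/M targets are filled above 0 and none of the 8 regulators is.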

How the data were processed

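RNA of MV4-11 cells was sequenced in 3 groups of 3 libraries. Per the submitters' processing notes, the tools include FastQC, TopHat2 2.1.1 and Bowtie2 2.3.2, with the build hg19. How reads were counted, tested, filtered and adjusted is not given in the sources used here. Both the log2 fold changes and the mean log2 CPM were deposited by the authors, per the file headers. Each p-value and adjusted p-value is the authors' deposited one, and their ratio at the smallest p gives 16812 tests in 3 of the columns, of which 13410 genes were analysed here. In A1000 that ratio is 8406, fewer than the genes analysed, so it is not a count of tests there. Repeated entries (80 rows of 5 identifiers) were reduced to 1 each.

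The direction of the columns was inferred. As deposited, Pearson's r over all genes was -0.49, -0.53 and -0.45 between JB170 and A1000, A100 and MK, and 0.49 to 0.53 among those. Genes at 0 to 4 mean log2 CPM whose log2 fold change was 1 or more in size had larger implied errors when positive than when negative in A1000, A100 and MK (by 0.32, 0.29 and 0.30 on the log2 scale) and not in JB170 (0.03). Simulated counts coded as DMSO minus treated, with the mean taken over DMSO libraries, gave a gap of the same sign as in A1000, A100 and MK. Which libraries the deposited mean covers is not stated, and the small gap of JB170 alone does not settle its direction.

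A gene's implied error was the absolute fold change over the normal quantile of its p-value, or the median over 60 bins of mean log2 CPM where that quantile was under 1. Intervals are 1.96 errors either side. Differences between columns were tested by a two-sided normal test, adjusted by the Benjamini-Hochberg method. In simulated data of 13410 genes for 1 such pair, it called 68.7% of genes changed by 0.5 on the log2 scale. With the shared libraries taken off, it called 95.5% of them. Of unchanged genes it called 0% and 0.0606%, in the same order. Those shares describe the simulated data only. Whether they hold at the implied errors of the deposited columns, which were larger in MK, was not tested. Genes named are the 9 regulators and, of each list, the 4 with the smallest p with A1000 and the 2 with JB170. The regulators and lists were chosen with earlier results of these data known. The rule for like-patterned genes applied to called regulators, of which there were none. Python 3.11.15, numpy 2.4.6, scipy 1.17.1 and pandas 2.3.3 were used.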

Additional observations from a re-analysis of the deposited data

How the results depend on the processing

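The count of called regulators against DMSO stayed at 0 of 8 in all 4 columns with a threshold of 0.01, with adjustment over the genes of the table alone and over those at 3 or more mean log2 CPM. The smallest adjusted p under these was 0.0664, for RBL1 with A100 over the genes of higher level. With the sign of JB170 turned round, 1 regulator was called for A1000 minus JB170, RB1 at 0.39 (adjusted p = 0.0389 from the authors' values), with 616 genes called in all against 38; E2F2 then stood at 0.01 in place of -0.13, and RBL1 at 0.21 in place of 0.00. With the shared DMSO libraries taken off the error, the number of regulators called for A100 minus MK was 1, FOXM1, and the calls over all genes were 376 for A1000 minus JB170 and 227 for A100 minus MK, against 38 and 8. For A100 minus MK that error may be too small, since MK had the larger errors. All other results of the 8 regulators recomputed under these alternatives kept their direction and their side of the threshold. The turned sign was run for A1000 minus JB170 alone, and not for the other pairs with JB170 or for JB170 against DMSO. Among the partners, TFDP1 crossed it for A1000 minus JB170 with the shared libraries taken off. Its adjusted p went from 0.376 to 0.00481 in the approximate test. No paired analysis was possible because the authors' table holds no values per library, and leaving out each replicate was not run for the same reason. Depth is unknown, and the implied errors limit what could be called. With JB170, changes under 0.37 fell short of the largest p of a called gene for all 8 genes, though a somewhat smaller change might have passed.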
